A study of Mus musculus with 23 samples.

Results

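Liver transcripts of mice given furan at 1 mg/kg were set against those of control mice, on 4 arrays and 5 arrays, 9 of the 23 arrays of the series. The members were chosen by their labelled dose, with no measured value used. The 4 mice of the 1 mg/kg group and the 5 control mice were female B6C3F1 animals, a hybrid strain used in carcinogenicity testing, bought at 5 to 6 weeks of age. Furan was given in corn oil by gavage for 21 days, and the controls received the corn oil alone by the same route. Livers were taken 4 h after the last dose, so each value describes a liver shortly after a dose as well as after repeated dosing. Arrays from 5 mice at 2 mg/kg, 4 mice at 4 mg/kg and 5 mice at 8 mg/kg, treated in the same way, entered the same fit. Each animal gave 1 piece of frozen liver and 1 array.

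Furan is a small volatile ring compound that forms when food is heated, and high doses cause liver tumours in rodents. Cytochrome P450 2E1 in hepatocytes opens the ring to a reactive dialdehyde, which binds glutathione, proteins and DNA bases. Damage of this kind is known to act on p53, which controls cell cycle arrest and death, on NRF2, which controls glutathione and detoxification enzymes, and on heat shock and immediate early genes. The question the comparison addresses is whether the lowest dose of the series altered any of these transcripts.

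On each array the liver RNA carried Cy5 and a universal reference RNA of mouse carried Cy3. Levels are log2 ratios of the liver sample to that reference. Because the reference is a mixture of other RNA, a level can be compared between arrays for 1 gene but not between genes. Between 24672 and 27696 probes were well above background on the 1 mg/kg arrays, against 22925 to 27799 on the control arrays. Over the 19899 genes tested, arrays correlated with a median of 0.983 within the 1 mg/kg group, 0.979 between 1 mg/kg and control, and 0.973 within the controls. The hepatocyte genes Alb, Apoa1, Ttr and Hnf4a were well above background on all 9 arrays. The arrays lay on 5 slides, and 3 of them, slides 1, 3 and 4, held both groups. Slide 2 held no control and slide 5 no 1 mg/kg array. Slide 3 held replicate 1 of the 1 mg/kg group and replicate 2 of the controls, and each was the highest array of its group for Alb, Apoa1, Ttr and Hnf4a.

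No gene passed the threshold at 1 mg/kg, and below a gene is called changed only if it passed. Of 19899 genes tested with limma, 0 passed an adjusted p of 0.05 (0%), and the smallest adjusted p was 0.746. At an unadjusted p under 0.05 there were 701 genes (3.52%), of which 313 were higher and 388 lower at 1 mg/kg. A further measure, complete separation of the 4 treated from the 5 control arrays, held for 94 genes that were higher (0.472%) and 170 that were lower (0.854%). The median size of the difference was 0.10 on the log2 scale, against a median standard error of 0.16.

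The data also set an upper limit on most differences. The 95% interval, which is not adjusted for the number of genes, lay inside a 2-fold change in either direction for 17864 genes (89.8%) and inside a 1.5-fold change for 13310 (66.9%). A difference of more than 2-fold in value was seen for 79 genes, none of which passed.

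**Figure D1:**
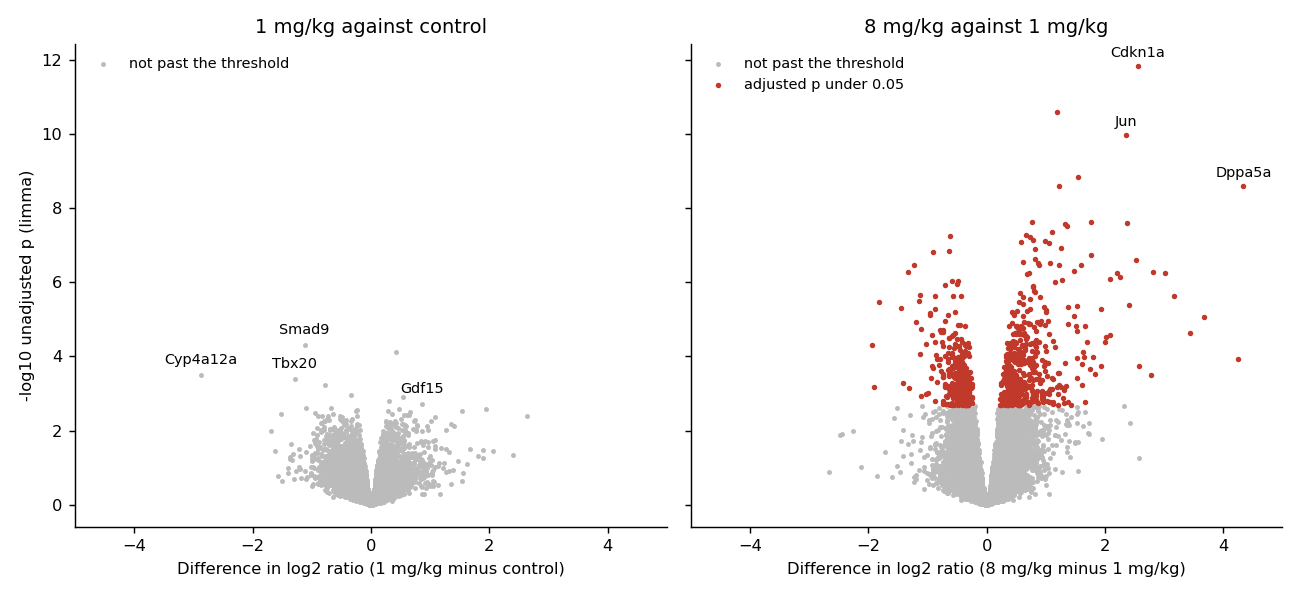
Each point is 1 of 19899 genes. The x axis is the difference in log2 ratio (left, 1 mg/kg minus control; right, 8 mg/kg minus 1 mg/kg) and the y axis is -log10 of the unadjusted limma p. Red points passed an adjusted p of 0.05: 0 on the left and 836 on the right.

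The genes of smallest p were lower at 1 mg/kg. Smad9, which encodes a transcription factor of the bone morphogenetic protein pathway, read 0.17, 0.03, 0.38 and 0.22 in the 1 mg/kg livers, against 0.93, 1.69, 1.17, 1.01 and 1.79 in the controls. All 4 treated livers lay below all 5 controls, with group means of 0.20 ± 0.14 (SD, n = 4) at 1 mg/kg and 1.32 ± 0.40 (SD, n = 5) in controls. The difference was -1.12 ± 0.22 (SE, 2.17-fold lower), with an interval of -1.57 to -0.66 and an unadjusted limma p of 4.81e-05, but its adjusted p was 0.746. On slides 1, 3 and 4 it was -0.98, -1.52 and -0.95. Smad9 also read lower than the same 5 controls at 2, 4 and 8 mg/kg, by -0.84, -0.54 and -1.11, and 8 mg/kg did not differ from 1 mg/kg (0.00 ± 0.22, adjusted p = 0.996).

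Cyp4a12a, a fatty acid hydroxylase gene with male-biased expression in mouse liver, gave the largest difference of all genes tested. Its levels were 2.55, 3.38, 2.74 and 3.1 at 1 mg/kg, against 4.95, 7.00, 6.05, 4.71 and 6.36 in controls. The groups did not overlap, and the difference was -2.87 ± 0.66 (7.32-fold lower, unadjusted p = 3.23e-04, adjusted p = 0.999 with limma). It spanned -1.33 on slide 1, -4.45 on slide 3 and -2.95 on slide 4. With normexp on raw signals the difference of Cyp4a12a was -1.01 and that of Smad9 was -0.61. Beside the same controls the differences of Cyp4a12a at 2, 4 and 8 mg/kg were smaller, at -1.55, -1.54 and -0.54. The other 22 measured genes of the sex-biased list ranged from -0.58 for Slco1a1, an organic anion transporter gene, to 1.06 for Cux2, a female-biased transcription factor gene, and the groups overlapped for all 22.

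Tbx20, a T-box transcription factor gene known from heart development, read 3.40, 3.06, 2.87 and 3.63 at 1 mg/kg, against 4.90, 3.80, 4.44, 4.43 and 5.10 in controls, without overlap. Its difference was -1.29 ± 0.31, with an adjusted p of 0.999, but it was -0.01 with normexp on raw signals, so it depended on how the signal was processed. That setting uses raw spot medians and an offset of 50 as well as another background correction. The other genes of smallest p in this direction were Sugp2, Unc79, 4933427D14Rik, Ctnnal1, Mast1, Rsf1 and Zfp263, with differences from -1.09 for Unc79 (-0.46 with normexp on raw signals) to -0.23 for Zfp263 and an adjusted p of 0.999 each. Several of these were small differences measured with little spread. For Zfp263 the 4 treated livers lay between -1.06 and -0.92, and the 5 controls between -0.78 and -0.72. Mast1 differed by -0.64 on its brightest probe, while its other probes gave 0.01 and 0.05.

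In the higher direction, the genes of smallest p described here were Copg1, Kif13a, Gdf15, Adam17, Serpinb3d, Colgalt2, Insig1, Odc1 and Lmtk3, each with an adjusted p of 0.999. Copg1, which encodes a coat protein of vesicles that move from the Golgi to the endoplasmic reticulum, differed by 0.54 ± 0.14 and did not overlap between groups. Odc1, the rate-limiting enzyme of polyamine synthesis, read -0.78, -1.04, -0.82 and -0.78 at 1 mg/kg, against -1.08, -1.35, -1.21, -1.32 and -1.07 in controls. Its 4 treated values lay above all 5 controls by a small margin, and its other probes gave 0.35 and 0.48 beside 0.35 on the brightest. For Adam17, which encodes a sheddase of membrane proteins, the brightest probe gave 0.47 and a second probe -0.04. Colgalt2, a collagen galactosyltransferase gene, differed by 1.53 ± 0.45, with 1 control at 2.36 and the other controls between 3.82 and 4.25. With normexp on raw signals the differences of Colgalt2 and Adam17 were 0.41 and 0.15.

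**Figure D2:**
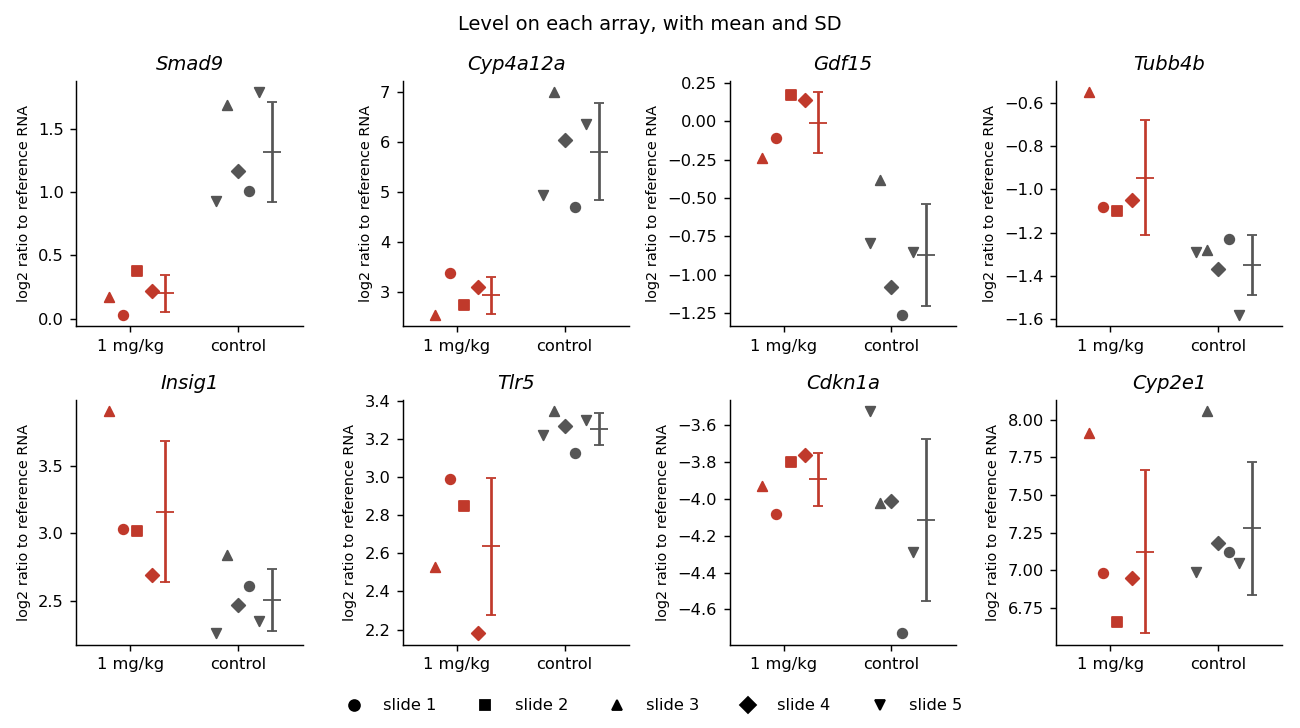
Levels of 8 genes on each array of the 1 mg/kg group (red, left) and the control group (grey, right), as log2 ratio to the reference RNA, with a bar for the mean and SD. Marker shape gives the slide. Smad9, Cyp4a12a, Gdf15, Tubb4b and Tlr5 separate the groups but did not pass the test, and Insig1, Cdkn1a and Cyp2e1 overlap.

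Some dim transcripts were detected at 1 mg/kg and in no control. Of 19899 genes, 15 were well above background on all 4 arrays at 1 mg/kg and on none of the 5 controls. The brightest probe of each gene was used, and 0 genes showed the reverse. Detection on all 4 arrays at 1 mg/kg, or on all 5 controls, was by itself enough to admit a probe to the test. These counts are therefore a description. At 8 mg/kg, 12 genes were above background on all 5 arrays and on none of the controls, and 0 showed the reverse. Control replicates 1, 3 and 5 had fewer probes above background (22925, 23198 and 24534) than any 1 mg/kg array (24672 or more). Whether this gave the pattern was not tested. Only 5 of the 15 have a gene symbol here: Serpinb3d, a serine protease inhibitor gene, Gja5, a gap junction gene, Styxl1, Shd and Bsph1. These are dim probes, and a bound on the ratio of group means is all that can be given. It makes no allowance for the spread between animals. For Serpinb3d it was at least 1.22-fold higher at 1 mg/kg (adjusted p = 0.999), with measured means of 4.24 at 1 mg/kg and 2.29 in controls. The bounds for Styxl1, Shd, Gja5 and Bsph1 were at least 1.62-fold, 1.46-fold, 1.23-fold and 1.03-fold, with an adjusted p of 0.999 each, and the levels of these 4 genes overlapped between the groups. At 8 mg/kg, Shd was above background on 4 of 5 arrays, Gja5 and Styxl1 on 3, Serpinb3d on 1 and Bsph1 on 0.

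The p53 target genes were close to control at 1 mg/kg. Of 22 measured targets 0 changed, their median difference was 0.04 against -0.01 over all genes tested, and for 20 the interval lay inside 2-fold. Cdkn1a, the gene of p21, which halts the cell cycle, read -3.93, -4.08, -3.80 and -3.76 at 1 mg/kg, against -3.52, -4.02, -4.01, -4.73 and -4.29 in controls. These groups overlapped, the means were -3.89 ± 0.14 (SD, n = 4) and -4.12 ± 0.44 (SD, n = 5), and the interval of the difference ran from -0.13 to 0.58. Mdm2, the ubiquitin ligase gene of p53, differed by -0.08 ± 0.09, the pore-forming death gene Bax by 0.04 ± 0.12 and Phlda3, an Akt inhibitor gene, by 0.01 ± 0.12.

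Gdf15 stood highest in the p53 list. It encodes a secreted stress cytokine, and p53 is 1 of several factors known to induce it. Its levels were -0.24, -0.11, 0.17 and 0.14 at 1 mg/kg, against -0.79, -0.38, -1.08, -1.26 and -0.85 in controls, without overlap. The difference was 0.86 ± 0.24 (1.82-fold higher, unadjusted p = 0.00189, adjusted p = 0.999), and on slides 1, 3 and 4 it was 1.15, 0.14 and 1.22. Beside the same controls Gdf15 differed by 0.84, 1.30 and 2.24 at 2, 4 and 8 mg/kg. Tnfrsf10b, a death receptor gene, was next at 0.60 ± 0.22, but control replicate 1, at -3.40, lay above 3 of the 4 treated livers. The other 20 targets differed by -0.17 to 0.28.

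Genes that oxidise furan or clear its product did not pass either. Cyp2e1, the enzyme gene that starts furan metabolism, read 7.91, 6.98, 6.66 and 6.95 at 1 mg/kg, against 6.99, 8.06, 7.18, 7.12 and 7.05 in controls. The 2 highest values came from the 2 arrays of slide 3, 1 in each group, and the difference was -0.15 ± 0.29 overall and between -0.24 and -0.14 within slides. Of 20 measured genes of furan oxidation and conjugation 0 changed, with a median difference of 0.01. Nat1, an N-acetyltransferase gene, had the lowest value at -1.40 with an unadjusted p of 0.103, and Nat8, a gene of mercapturic acid synthesis, did not overlap between groups at -0.51 (unadjusted p = 0.196).

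The antioxidant and glutathione genes controlled by NRF2 had a median difference of -0.04 over 37 measured members, of which 0 changed, 12 were above 0 and 35 had an interval inside 2-fold. Nqo1, a quinone reductase gene, differed by 0.00 ± 0.17, the heme oxygenase gene Hmox1 by -0.02 ± 0.26 and Gclc, which encodes the catalytic subunit of glutathione synthesis, by -0.14 ± 0.16. A second probe of Hmox1 gave 0.32. Gsta1, a glutathione transferase gene, was variable within both groups, at 1.57, 1.85, -0.99 and 1.13 at 1 mg/kg and 1.38, -1.51, -0.62, 0.64 and 1.41 in controls, so its interval reached from -0.68 to 1.94. Me1, the malic enzyme gene that supplies NADPH, was the member of smallest p, at -0.43 ± 0.15 (unadjusted p = 0.0094, adjusted p = 0.999). Its other probes gave -0.39 and -0.41. On slide 3 the difference of Me1 was 0.02, against -0.76 on slide 1 and -0.34 on slide 4.

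Stress, death and division genes were likewise near control, with 0 changed in each list. Heat shock chaperone genes had a median of 0.09 over 16 members, 13 of them above 0, against 9164 of all 19899 genes, and Hsp90aa1 stood highest at 0.32 ± 0.17. The mean over this list overlapped between the groups, at -0.01 to 0.23 at 1 mg/kg and -0.09 to 0.09 in controls. Immediate early genes had a median of 0.00 over 18 members, with Jun at -0.11 ± 0.20 and Myc at -0.50 ± 0.42. The integrated stress and unfolded protein response list had a median of 0.05 over 28 members. Its extremes lay in opposite directions: Chac1, a glutathione-degrading enzyme gene, at -0.79 ± 0.30 (unadjusted p = 0.0179) and Hyou1, a chaperone gene of the endoplasmic reticulum, at 0.54 ± 0.22 (unadjusted p = 0.0214).

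Cell death mediator genes stayed within -0.32 to 0.34 over 28 members, and all 28 had an interval inside 2-fold. The proliferation marker Mki67 read -5.73, -5.12, -4.99 and -5.23 at 1 mg/kg, against -5.66, -5.60, -5.11, -5.63 and -5.87 in controls, an overlapping difference of 0.31 ± 0.27. Pcna, the DNA polymerase clamp gene, was measured more tightly, at 0.01 ± 0.09 with an interval of -0.17 to 0.20. The median over 29 cell cycle and replication genes was 0.02, and over 23 DNA repair genes -0.05. The embryonic and tumour marker Afp read -1.82, -1.65, -1.65 and -1.60 at 1 mg/kg, against -2.06, -1.84, -2.19, -2.80 and -2.06 in controls. These did not overlap, and the difference was 0.51 ± 0.30 with an unadjusted p of 0.102. The list of oncofetal and liver tumour markers that holds Afp had a median of 0.02, with 7 of 11 members above 0. Its lowest member, H19, was at -0.56, and other probes of H19 gave -0.83 and -0.96.

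**Figure D3:**
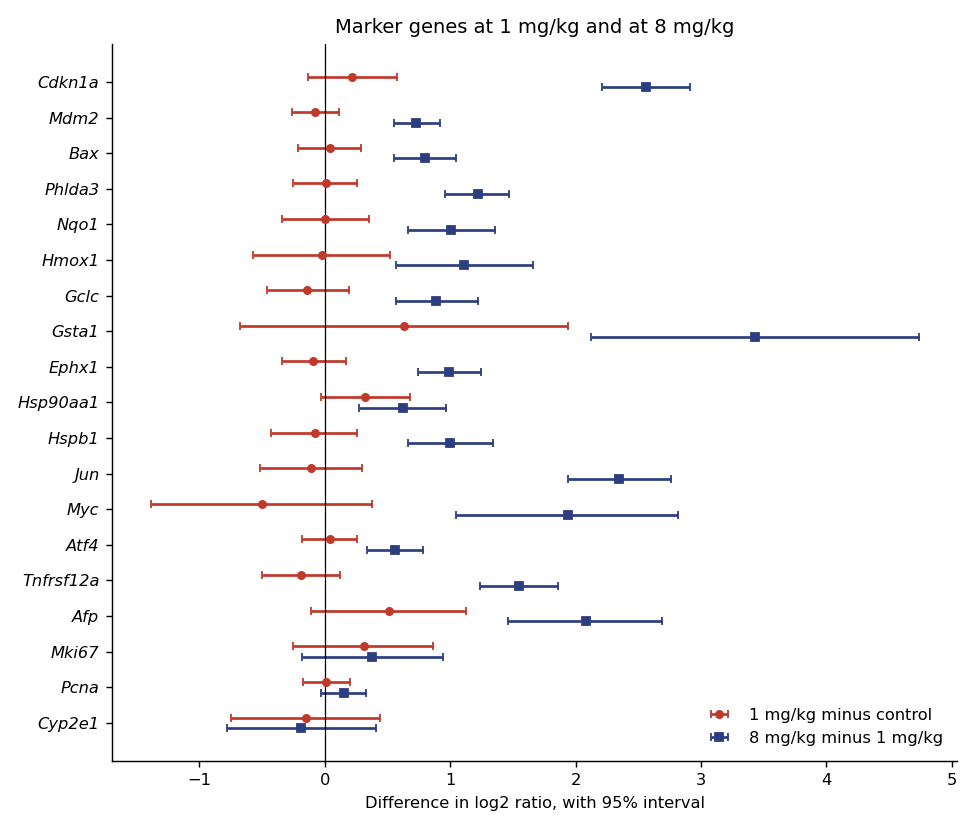
Differences in log2 ratio with 95% intervals for 19 marker genes, as 1 mg/kg minus control (red circles) and 8 mg/kg minus 1 mg/kg (blue squares). The red intervals all include 0, and the blue intervals exclude it for all but Mki67, Pcna and Cyp2e1. Both differences share the 1 mg/kg arrays.

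Of 11 measured tubulin genes, the subunits of microtubules, 4 had an unadjusted p under 0.05, against 3.52% of all genes, and 0 of them passed. Tubb4b, a beta-tubulin gene, read -0.55, -1.08, -1.10 and -1.05 at 1 mg/kg, against -1.29, -1.28, -1.37, -1.23 and -1.58 in controls, a difference of 0.41 ± 0.13 (unadjusted p = 0.00557, adjusted p = 0.999). Replicate 1 at 1 mg/kg was the highest array for it, and also for Tubb2a, Tuba1c and Tuba4a, which differed by 0.70, 0.52 and 0.63. Without that array the differences of Tubb4b, Tubb2a, Tuba1c and Tuba4a were 0.27, 0.27, 0.25 and 0.43. The median over the 11 genes was 0.12, with a range of -0.34 to 1.32, and 9 were above 0, against 9164 of all 19899 genes. The mean over the list, relative to the control mean, did not overlap between the groups. It was 0.13 to 0.62 at 1 mg/kg and -0.30 to 0.11 in controls, for a list chosen with earlier results of these data known. Tubb5, Tuba1a and Tuba1b were at 0.02, 0.10 and -0.06, and a second probe of Tuba1b gave 0.42.

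Of 24 measured genes of cholesterol synthesis and its control, 0 changed. The median was 0.14, 20 were above 0, against 9164 of all 19899 genes, and 3 had an unadjusted p under 0.05, against 3.52% of all genes. The mean over the list, relative to the control mean, overlapped between the groups, at -0.02 to 0.41 at 1 mg/kg and -0.21 to 0.28 in controls. Insig1, which encodes a sterol-regulated brake on this pathway, read 3.91, 3.03, 3.02 and 2.69 at 1 mg/kg, against 2.26, 2.84, 2.47, 2.61 and 2.35 in controls (difference 0.66 ± 0.20, unadjusted p = 0.00306, adjusted p = 0.999). Without replicate 1 at 1 mg/kg it was 0.41. The squalene epoxidase gene Sqle differed by 0.53 ± 0.20 and the mevalonate decarboxylase gene Mvd by 0.62 ± 0.23. Idi1, an isomerase gene of the pathway, was at 0.02 ± 0.18.

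Other liver metabolism showed wide intervals rather than differences. The drug-metabolising genes Cyp2b10, Cyp3a11 and Cyp1a2 differed by 0.03 ± 0.18, -0.03 ± 0.53 and 0.19 ± 0.28, and Cyp7a1, the rate-limiting enzyme of bile acid synthesis, by 0.40 ± 0.46. Median differences were 0.04 over 19 CAR, PXR and AhR targets, -0.03 over 34 PPARA targets, -0.02 over 26 bile acid genes, -0.01 over 21 fatty acid synthesis genes and 0.01 over 17 gluconeogenesis genes. Clock genes differed between animals of the same group: the core clock gene Arntl ranged from -2.65 to -0.83 at 1 mg/kg and from -4.24 to 0.42 in controls. The tightest lists were the proteasome, where all 25 members had an interval inside 1.5-fold, and the respiratory chain, where all 17 did.

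**Figure D4:**
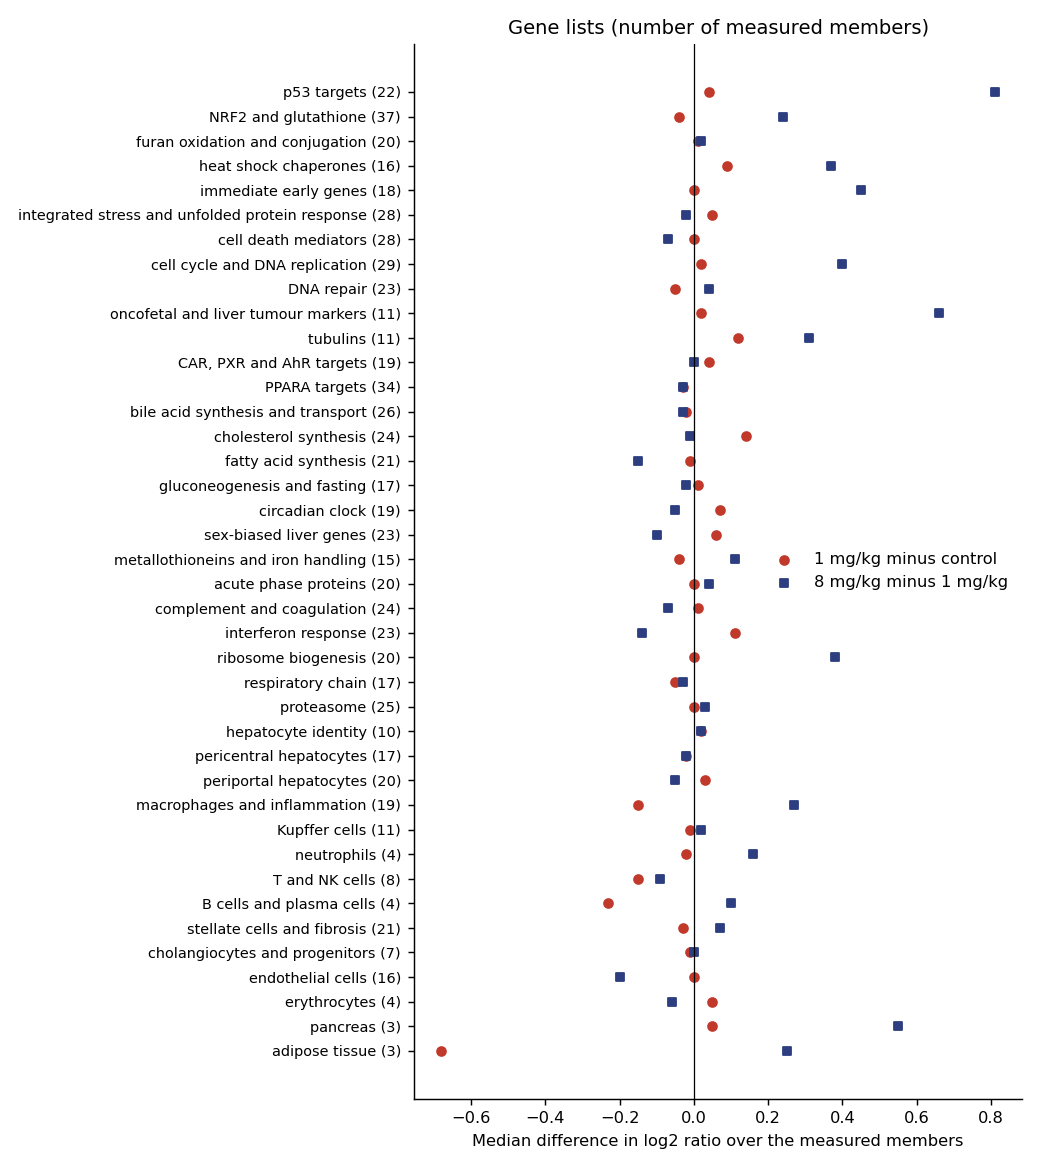
Median difference in log2 ratio over the measured members of each gene list but those of large changes at 8 mg/kg (number of members in brackets), as 1 mg/kg minus control (red circles) and 8 mg/kg minus 1 mg/kg (blue squares). Red medians lie between -0.23 and 0.14 for all lists drawn but adipose tissue, which rests on 3 genes.

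No marker of the liver's cell types passed the threshold, though some were loosely bounded. The interval lay inside 2-fold for 8 of 10 hepatocyte identity genes and 7 of 11 Kupffer cell genes. It lay inside 1.5-fold for 3 and 2 of them. In whole tissue, fewer cells of a type and less RNA per cell cannot be told apart. Of 10 hepatocyte identity genes, 17 pericentral genes, 20 periportal genes, 11 Kupffer cell genes, 21 stellate cell and fibrosis genes and 16 endothelial genes, 0 changed, and medians ran from -0.03 to 0.03. The mean over the hepatocyte identity genes, relative to the control mean, ranged from -0.43 to 0.82 at 1 mg/kg and from -0.33 to 0.57 in controls, so the animals of a group spanned more than the groups differed. The pericentral gene Glul, which encodes glutamine synthetase, was at 0.08 ± 0.14 and the Kupffer cell gene Clec4f at -0.27 ± 0.38.

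Of the immune genes measured, 0 changed. Cxcl10, a chemokine gene, was the inflammation gene of smallest p, at 0.07, 0.60, 0.21 and 0.31 in the 1 mg/kg livers, against -0.27, -0.09, -0.02, 0.30 and -0.19 in controls (difference 0.35 ± 0.16, unadjusted p = 0.0384). The list of macrophage and inflammation genes that holds it had a median of -0.15, with 8 of 19 members above 0, and the cytokine gene Il1b was its lowest at -0.72. Control replicate 4 read 2.20 for Il1b, against 0.10 to 0.60 in the other controls. Medians were also below 0 for T and NK cell genes (-0.15, 2 of 8 above 0) and B cell genes (-0.23, 1 of 4 above 0), and above 0 for interferon response genes (0.11, 16 of 23). Pancreatic enzyme genes, which set arrays of other doses apart, averaged -0.04 to 0.15 above the control mean at 1 mg/kg and -0.31 to 0.25 in controls. The adipose genes Plin4, Cidec and Fabp4 were at -0.74 ± 0.29, -0.68 ± 0.38 and -0.25 ± 0.20, and control replicates 1 and 5 were the highest of the 9 arrays for each of them. Both of these control arrays lay on slide 5, which held no 1 mg/kg array, and whether the slide played a part was not tested.

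Genes known from earlier results to rise or fall most at 8 mg/kg against these controls were examined at 1 mg/kg. Because they were chosen on differences from the same 5 controls, their values at 1 mg/kg are a description. The 15 genes of large rises had a median of 0.51 at 1 mg/kg, with 3 at an unadjusted p under 0.05, and the 12 of large falls a median of -0.29, with 4 at that level, against 3.52% of all genes. The interval lay inside 2-fold for 3 of the 15 and 7 of the 12. Dppa5a, Dusp8 and Hsd3b4, dim at 1 mg/kg and in controls, are among the 15. The median of 0.51 thus rests partly on values near background. Tlr5, the flagellin receptor gene, read 2.53, 2.99, 2.85 and 2.18 at 1 mg/kg, against 3.22, 3.35, 3.27, 3.13 and 3.30 in controls (difference -0.62 ± 0.21, adjusted p = 0.999, and -0.19 with normexp on raw signals). Bbs10, a chaperonin-like gene of cilia, differed by -0.34 ± 0.16. Prom2, a membrane glycoprotein gene, was above background on 2 of 4 arrays at 1 mg/kg and 0 of 5 controls, a bound of at least 1.09-fold, with measured means of 3.60 and 0.96.

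Jun, of the list of large rises, read -4.41, -4.31, -3.89 and -3.95 at 1 mg/kg, against -4.06, -4.17, -4.11, -3.90 and -3.93 in controls. Bmf, a death-promoting gene of the BCL2 family, differed by 0.34 ± 0.29 and Ncmap, a myelin-associated gene, by 0.00 ± 0.24. Dppa5a, Dusp8 and Hsd3b4 were above background on 0 of 4 arrays at 1 mg/kg and 0 of 5 controls, so no difference can be given for them.

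**Figure D5:**
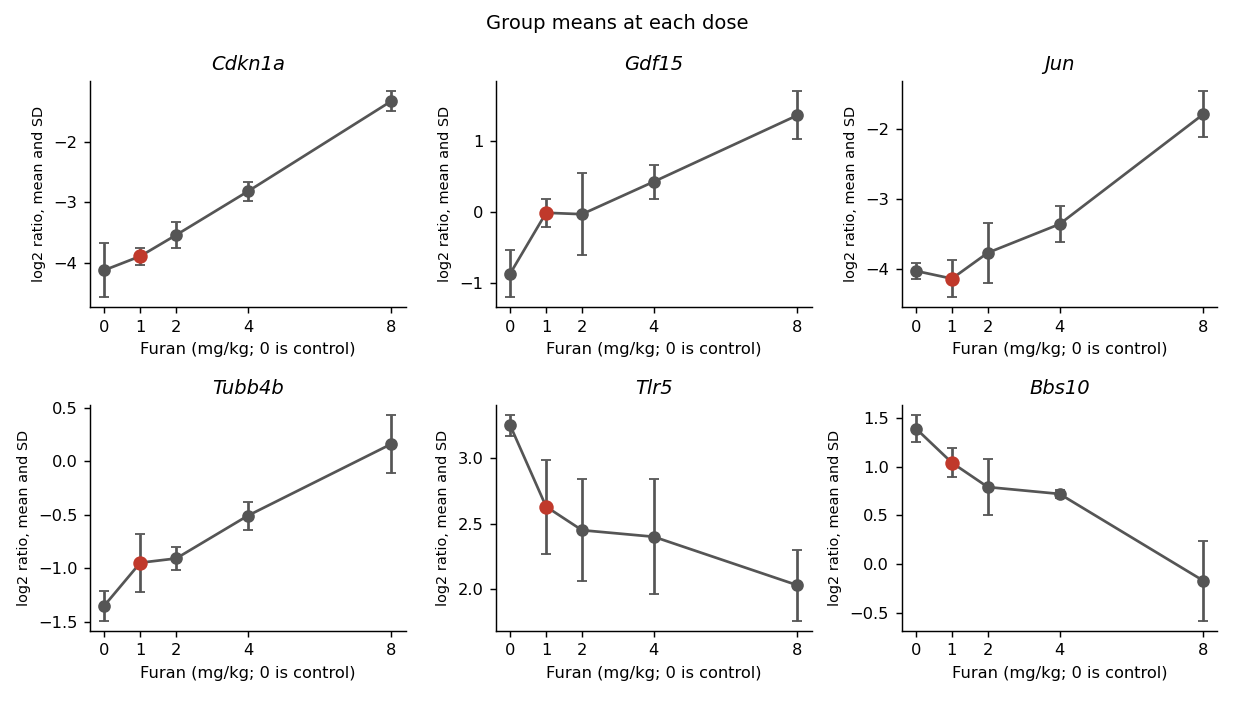
Mean and SD of the log2 ratio at each furan dose in mg/kg, with control at 0, for 6 genes (n = 5, 4, 5, 4 and 5 from control to 8 mg/kg). The 1 mg/kg mean is in red. Cdkn1a and Jun at 1 mg/kg lie at -3.89 and -4.14, near control, while Gdf15, Tubb4b, Tlr5 and Bbs10 lie between control and 8 mg/kg.

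The direct comparison of 8 mg/kg with 1 mg/kg, which uses no control array in its contrast, showed where the lowest and the highest dose differed. Of 19899 genes, 501 were higher (2.52%) and 335 lower (1.68%) at 8 mg/kg, 836 in all at a limma adjusted p of 0.05. The total depended on single arrays: it was 524, 400 and 443 without replicates 1, 2 and 3 of the 1 mg/kg group, and 433 without the arrays of slide 3. Since the lists were chosen with results at 8 mg/kg known, the counts below are not independent evidence of their direction.

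Of 22 p53 targets, 14 rose at 8 mg/kg against 1 mg/kg and 0 fell, with a median of 0.81. Cdkn1a was at -1.33 ± 0.16 (SD, n = 5) at 8 mg/kg, against -3.89 ± 0.14 (SD, n = 4) at 1 mg/kg, and rose by 2.56 ± 0.17 (5.9-fold, limma adjusted p = 2.97e-08). Within the 4 slides that held both doses it differed by 2.39 to 2.69. Aen, a nuclease gene, rose by 1.19 ± 0.09, Phlda3 by 1.22 ± 0.12, Mdm2 by 0.73 ± 0.09 and Gdf15 by 1.38 ± 0.24.

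NRF2 genes rose in 17 of 37 cases, with 0 falling and a median of 0.24. Ephx1, an epoxide hydrolase gene, rose by 0.99 ± 0.12, Nqo1 by 1.01 ± 0.17 and Gsta1 by 3.43 ± 0.63 (10.8-fold). Heat shock genes rose in 5 of 16 cases and immediate early genes in 7 of 18, with 0 falling in either list, and Jun rose by 2.35 ± 0.20 (adjusted p = 7.21e-07) and Hspb1, a small chaperone gene, by 1.00 ± 0.16. Ribosome biogenesis genes rose in 7 of 20 cases. Without the arrays of slide 3 the counts that rose were 13 for p53, 13 for NRF2, 1 for heat shock, 5 for immediate early and 3 for ribosome biogenesis genes. Without replicates 1, 2 and 3 at 1 mg/kg they were 4, 2 and 2 for heat shock and 4, 3 and 4 for ribosome biogenesis. Tnfrsf12a, the receptor gene for the cytokine TWEAK, rose by 1.55 ± 0.15. Among tubulins Tubb4b, Tubb2a and Tubb6 rose, by 1.10, 1.53 and 0.71.

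The largest rises among genes with a symbol were Dppa5a, Hsd3b4, Gsta1, Dusp8, Gm10639 and Samd4. The probes of Dppa5a, Hsd3b4, Dusp8 and Samd4 were above background on 0 of 4 arrays at 1 mg/kg, so their rises are bounds of at least 5.16-fold, 4.11-fold, 4.3-fold and 2.41-fold. Gm10639, a glutathione transferase-like locus, rose by 3.01 ± 0.42, and near-identical family members could share its signal. The largest falls were Wif1, Bmf, Ncmap, Rad51b, 1810046K07Rik and Bbs10, from -1.90 ± 0.47 for Wif1, a Wnt inhibitor gene, to -1.22 ± 0.16 for Bbs10. The fall of Wif1 starts from a 1 mg/kg mean 0.89 above control, a difference that did not pass. For the others 1 mg/kg minus control lay between -0.34 for Bbs10 and 0.34 for Bmf.

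When 2 mg/kg, the next dose, was set against 1 mg/kg, no gene passed the threshold. Of 19899 genes 0 passed an adjusted p of 0.05 (0%), and the smallest adjusted p was 0.559. With limma 1470 of the 19899 had an unadjusted p under 0.05, more than the 701 for 1 mg/kg against control. The median of 2 mg/kg minus 1 mg/kg was 1.77 over 3 pancreas genes and 1.09 over 4 neutrophil genes, against 0.01 over all genes. Whether admixed tissue added to the count of 1470 was not tested. Cdkn1a differed by 0.36 at 2 mg/kg against 1 mg/kg, Gdf15 by -0.02 and Tubb4b by 0.04. The median over the 22 p53 targets was 0.16.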

How the data were processed

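Arrays were scanned and extracted with Agilent Feature Extraction 10.7.3.1, per the file headers. The processed signal is an intensity from which the software had removed background and dye bias, per the file headers, and the spot medians and local backgrounds are raw intensities. The deposited table holds a linear Cy5 to Cy3 ratio per probe, with array medians of 0.974 to 0.987. Its normalization is not given in the sources used here.

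Log2 ratios of processed Cy5 over Cy3 were loess-normalised within arrays (span 0.3, 4 iterations), with control and marked spots at weight 0 and then removed. A probe stayed if Cy5 exceeded background clearly on 4 or more arrays of some group (25576 of 55681). Names came from matching systematic names to RefSeq genes of GRCm38.p6 (26413 probes, 20018 symbols). The brightest probe stood for a gene and needed 3 values per group, leaving 19899 genes, 12927 of them with a symbol. No Cy5 spot was saturated. The number of arrays limits the precision.

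All 23 arrays were fitted with limma 3.58.1 in R 4.3.3 by group alone, two-sided, with Benjamini-Hochberg adjustment over all genes and 18 residual degrees of freedom. The code was tested on simulated data. Each array is 1 mouse per the labels, so p-values measure the spread between animals. The 42 gene lists (701 distinct genes measured) and the members were chosen with earlier results of these data known. Genes were named by rule: those past the threshold at 1 mg/kg, or the 10 smallest p with a symbol in each direction; the first 4 measured members of each list and any with an unadjusted p under 0.01; the lists of large changes at 8 mg/kg; and the 6 largest rises and falls of 8 against 1 mg/kg. Other list members named here, and the 5 genes above background only at 1 mg/kg, were chosen after their values were seen. A few genes that the rule names are not reported here. A bound sets the brighter group's mean Cy5 signal against the dim group's signal, or the lowest signal above background where higher, and is open to dye bias, since no dyes were swapped. Bounds make no allowance for the spread between animals.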

Additional observations from a re-analysis of the deposited data

Results flagged for a closer look

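In the 210 genes checked, the 4 arrays at 1 mg/kg and the 5 control arrays were each searched for 1 array far from the rest by Dixon's test, 420 groups in all. At the 95% level used, chance alone marks about 5% of groups. The test marked 32, and 17 of them were on the 2 arrays of slide 3.

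Replicate 1 at 1 mg/kg, on slide 3, stood apart for 11 genes. It was high for Tubb4b (-0.55), Cyp2b10 (4.94), Cyp2b9 (10.51), Pdk4 (1.97), Fasn (4.71), Srebf1 (3.97), Elovl6 (2.65), Igfbp1 (9.56), Mup20 (12.72) and Prom1 (9.88), and low for Bax (-1.49). For Fasn, which encodes fatty acid synthase, the other 3 livers lay between 2.92 and 3.18. Replicate 2 at 1 mg/kg was low for Odc1 (-1.04), Sqle (-0.13) and Timp1 (-4.15), and replicate 3 was high for Hsd3b4 (2.42), Chac1 (-2.35) and Bsph1 (1.81).

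Control replicate 2, also on slide 3, was high for 6 genes: Cyp2e1 (8.06), Casp8 (0.81), Mup20 (12.88), Hp (7.44), Orm1 (10.14) and Glul (6.35). Control replicate 4 was high for Ephx1 (2.42), Irf7 (1.21), Il1b (2.20) and the macrophage gene Adgre1 (1.73, against 0.20 to 0.46 in the other controls). Control replicate 3 was low for Colgalt2 (2.36), Nkg7 (1.17) and Tuba1c (-0.93), and control replicate 1 was high for Pcna (-2.92) and Col1a1 (-5.33).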

How the results depend on the processing

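At 1 mg/kg against control 0 genes, and 0 list members, passed under each of the 33 alternatives, with a smallest adjusted p between 0.229 (without the arrays of slide 3) and 1. The count for 2 mg/kg against 1 mg/kg was also 0 throughout. Aquantile leaves log ratios as they are, so its identical result adds nothing.

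The 836 genes of 8 mg/kg against 1 mg/kg became 1503 with slide as a block, 2023 with array weights, 430 with no filter on dim probes, 476 with raw signals, 494 with normexp, 432 with the deposited table, 433 without slide 3 and 422 with only the arrays compared. Leaving out single arrays gave 400 to 974, those of 8 and 2 mg/kg having been added after seeing the data. The cause was not tested. With median centring, 567 were higher and 167 lower (77.2% higher, against 59.9%).

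Same-numbered replicates did not deviate together (correlations of -0.01 to 0.09 over 4 numbers). With the replicate block the counts were 0 at 1 mg/kg against control and 611 for 8 against 1 mg/kg.

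Of 6924 values of named genes at 1 mg/kg under the alternatives, 0 passed, and 524, from 109 of 210 genes, had the opposite sign to the reported one. These are not listed, since neither value passed. For 8 against 1 mg/kg, Wif1 passed under 24 of 33 alternatives, Rad51b under 29 and 1810046K07Rik under 22.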
